A study of Homo sapiens with 15 samples.

Results

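The transcripts of 10 genes of the MHC class II presentation pathway were examined in THP-1 cells, a human monocytic leukaemia line, exposed to bacterial extracellular vesicles (BEVs). The genes were taken from the count table by symbol, namely CIITA, CD74, HLA-DRA, HLA-DRB1, HLA-DPA1, HLA-DPB1, HLA-DQA1, HLA-DQB1, HLA-DMA and HLA-DMB. All 10 were among the 60286 genes listed, and 9 of them were among the 17198 genes with enough reads to be tested. HLA-DPB1, with 1 to 9 reads in a library, was not tested. The study compared BEVs isolated by ultracentrifugation (UC) with BEVs isolated by an ε-poly-L-lysine method (PL), and asked whether the isolation method changes the host response. There were 5 groups of 3 libraries: non-stimulated cells given PBS (NC), cells given *E. coli* BEVs at 1 μg/mL from UC (EUC) or from PL (EPL), and cells given *S. aureus* BEVs at 10 μg/mL from UC (SUC) or from PL (SPL). RNA was taken after 6 hours of incubation, and the labels of all 15 libraries give day 0. The BEV species and the dose changed together and cannot be told apart, and all libraries come from the same cell line.

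MHC class II molecules are heterodimers of an α and a β chain that carry peptides from endosomes to the cell surface, where CD4+ T cells inspect them. The chains HLA-DR, HLA-DP and HLA-DQ present peptide, the invariant chain CD74 escorts them out of the endoplasmic reticulum and blocks their groove, and HLA-DM exchanges the invariant chain remnant for peptide. CIITA is the transactivator that sets the output of these genes. It does not bind DNA itself, but docks on a complex of RFX, CREB and NF-Y factors assembled on the promoters. In cells of the monocyte lineage, interferon-γ or maturation can raise class II.

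Class II promoters are known for an X box, bound by RFX and CREB, followed by a Y box, an inverted CCAAT bound by NF-Y. RefSeq promoter sequences of GRCh38.p14, from 250 bases before to 50 after the start of the gene, had an entry for 8 of the 10 genes, and none for CIITA and HLA-DRA. The letters TGATGA, which form part of the X box and were chosen with the sequences in view, were present on either strand in 5 of these 8 genes, and in 10.9% of all 35116 promoters. CCAAT was present on either strand in 7 of the 8 genes and in 34.6% of all promoters, and both were present in 4 of the 8 genes and in 4.11% of all promoters. The 80 bases that start 10 bases before TGATGA are shown for those 4 genes, 5′ to 3′ on the strand of the gene, because they hold both runs of letters. Capitals mark TGATGA and CCAAT, the latter also in its inverted form ATTGG, the orientation of the Y box, which only the HLA-DRB1 and HLA-DMA stretches hold.
CD74: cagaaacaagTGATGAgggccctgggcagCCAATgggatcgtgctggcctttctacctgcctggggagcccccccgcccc
HLA-DRB1: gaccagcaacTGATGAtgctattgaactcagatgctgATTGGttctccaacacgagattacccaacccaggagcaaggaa
HLA-DMA: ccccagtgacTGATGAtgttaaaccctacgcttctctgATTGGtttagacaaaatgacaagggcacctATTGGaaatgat
HLA-DMB: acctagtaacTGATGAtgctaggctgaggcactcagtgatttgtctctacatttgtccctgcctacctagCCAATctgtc
The CD74 stretch lies at chr5:150412913-150412992, the HLA-DRB1 stretch at chr6:32589852-32589931, the HLA-DMA stretch at chr6:32953135-32953214 and the HLA-DMB stretch at chr6:32941041-32941120, all on the minus strand of GRCh38.p14. They start 82, 83, 117 and 92 bases before the start of the gene, in that order. A match of letters is a description and not a measured binding site.

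Class II genes lie together on chromosome 6, from the first base of HLA-DRA at 32439878 to the last base of HLA-DPB1 at 33089696 (GENCODE 44, hg38). CD74 lies at chr5:150401637-150412969 on the minus strand, and CIITA at chr16:10866222-10943021 on the plus strand. The libraries held 14399421 to 16637345 reads assigned to genes, and levels are given as normalised CPM (reads scaled to a common library size). Differences are log2 fold changes with their standard error (SE), tested by edgeR's quasi-likelihood test in 1 fit of all 15 libraries. A gene is said to have risen or fallen only with a Benjamini-Hochberg adjusted p of at most 0.01 over all tested genes, and a differentially expressed gene (DEG) also needed a log2 fold change of at least 1, the cut-offs of the study. The labels do not say whether the 3 libraries of a group came from separate cultures, so each p measures the spread between these libraries. The libraries EUC3 and SUC3 stood apart, with 7.24% and 7.28% of their reads on ribosomal protein genes, against 4.77% to 6.39% in the other 13, and with the fewest genes detected.

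The monocytic markers were present: SPI1 was at 456 to 1388 CPM and CSF1R at 201 to 341 CPM over the 15 libraries, whereas CD14 was at 3.20 to 9.90 CPM and CD68 at no more than 0.19 CPM. The annotated exons of CD68 overlap a readthrough transcript over 81.6% of their length. Of the 8 monocytic markers 7 were tested, and their summed level was 918 to 934 CPM in NC and 1398 to 1931 CPM in the BEV groups. SPI1, at 456 to 487 CPM in NC and 896 to 1388 CPM in the BEV libraries, was the largest part of this sum. SPI1, CD14 and CSF1R rose in all 4 groups, whereas MPO and CD33 fell in all 4 and LYZ fell in EUC, SUC and SPL. Of all tested genes 10.9% rose in all 4 groups and 7.67% fell in all 4. The median log2 fold change of the list was -0.25, -0.05, -0.15 and -0.14 in EUC, EPL, SUC and SPL. B cells and dendritic cells also carry class II. Of the 5 B cell markers MS4A1, CD79A and CD79B were below 0.70 CPM in every library, while the summed level of the list was 9.47 to 11.1 CPM in NC and 12.2 to 27.1 CPM in the BEV groups. PAX5, a B cell transcription factor, rose in all 4 BEV groups, from 5.13 to 5.88 CPM in NC to 9.44 to 22.8 CPM. Of the 5 dendritic cell markers FCER1A and CLEC9A were at or near 0, CD1C and CLEC10A rose in all 4 groups from at most 0.95 CPM, and FLT3 fell in all 4. That list summed to 55.7 to 62.9 CPM in NC and to 37.1 to 48.5 CPM in the BEV groups. Of the 4 T cell markers none was tested, CD3D had no read in any library, and the sum was at most 0.312 CPM. The part of these markers in the results was not tested, and in bulk RNA more cells that express a gene and more RNA per cell cannot be told apart.

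CD74, HLA-DRA and CIITA carried most of the class II calls. Against NC, 3 of the 9 tested genes rose in EUC, where 16.5% of all tested genes rose. In EPL 3 of 9 rose against 16.0% of all genes, in SUC 2 of 9 against 12.4%, and in SPL 4 of 9 against 13.3%. CD74 and HLA-DRA rose in all 4 comparisons, which 10.9% of all tested genes did. CIITA rose in EUC, EPL and SPL, and HLA-DPA1 in SPL. No gene of the 9 fell in any BEV group, where 14.0%, 13.2%, 9.15% and 10.6% of all genes fell in EUC, EPL, SUC and SPL and 7.67% fell in all 4. At an unadjusted p under 0.05, 6, 5, 2 and 5 of the 9 were higher in EUC, EPL, SUC and SPL, and 0 were lower. In the same order, 8269, 8094, 6945 and 7262 of all 17198 tested genes were under that cut-off in either direction. The number of the 9 called lower with DESeq2 was also 0. The 4 comparisons share the NC libraries.

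In the comparisons of single BEV groups with NC, each rise except that of CD74 was large enough to make a DEG. CIITA and HLA-DRA were DEGs in EUC and EPL, HLA-DRA in SUC, and CIITA, HLA-DRA and HLA-DPA1 in SPL. The counts were thus 2, 2, 1 and 3 of 9, against 9.43%, 9.38%, 6.82% and 7.76% of all genes that were up-regulated DEGs. For the 9 genes the median log2 fold change against NC reached 0.65 with EUC, 0.50 with EPL, 0.40 with SUC and 0.32 with SPL, beside medians of all tested genes between -0.0065 and 0.0067. With the 4 BEV groups averaged, CIITA, CD74 and HLA-DRA rose, which is 3 of 9 against 17.9% of all genes.

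**Figure D1:**
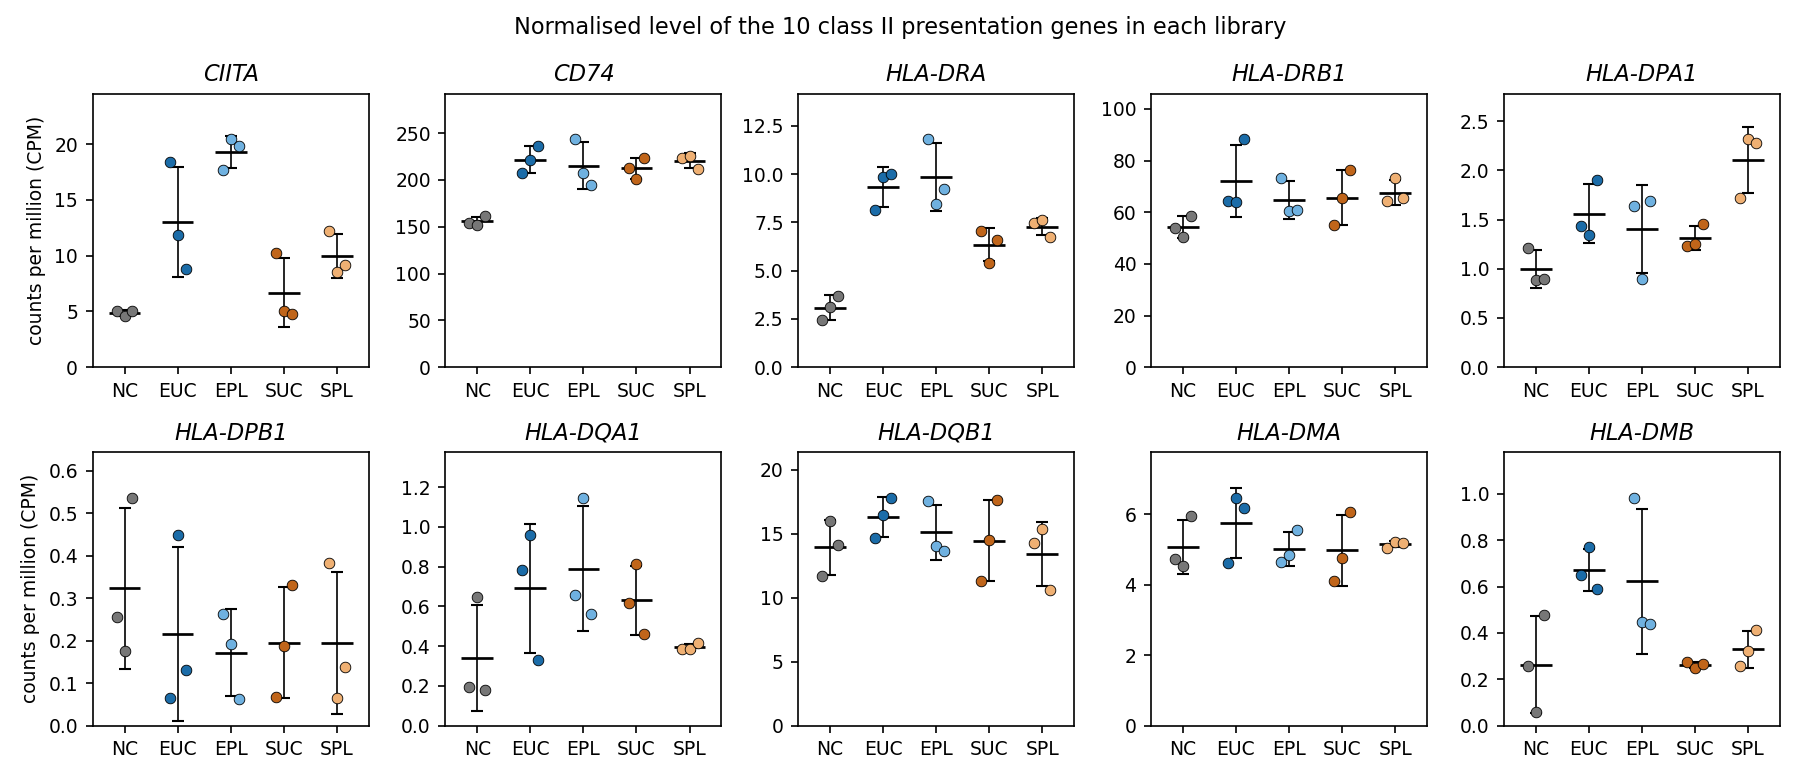
Level of each of the 10 genes in CPM (vertical axis, from 0) in the 3 libraries of each group (points), with the group mean (wide line) and SD (error bar). All BEV libraries lie above all NC libraries for CD74 and HLA-DRA, whereas the groups overlap for HLA-DQB1 and HLA-DMA.

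CIITA, the transactivator, gave the widest range of responses. In NC it was measured at 5.06, 4.59 and 5.01 CPM. In EUC it was at 18.4, 11.9 and 8.81 CPM, and in EPL at 17.6, 20.5 and 19.8 CPM. All 6 *E. coli* BEV libraries were above all NC libraries, and the spread in EUC was wide. In SUC it was at 10.2, 5.06 and 4.75 CPM, and in SPL at 12.2, 8.50 and 9.17 CPM. SUC overlapped NC, with SUC1 alone clearly above it, and SPL did not overlap NC.

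CIITA was thus 2.67-fold higher in EUC than in NC (log2 fold change 1.41, SE 0.28, edgeR adjusted p = 0.000513) and 3.95-fold higher in EPL (1.98, SE 0.27, edgeR adjusted p = 1.51e-05). In SPL it was 2.04-fold higher (1.03, SE 0.28, edgeR adjusted p = 0.00888), close to the threshold. This call was lost when the libraries were scaled by their totals only (adjusted p = 0.0246) and when any of the NC, SPL or EPL libraries or EUC2 was left out, with an adjusted p of up to 0.048 (without SPL1). In SUC the log2 fold change was 0.45 (SE 0.29, edgeR adjusted p = 0.274), with a 95% interval from -0.17 to 1.06, and 0.016 without SUC1.

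The level of CIITA moved with a library property. In each of the 4 BEV groups the library with the highest share of ribosomal protein reads was the one with the lowest CIITA. Over the 15 libraries, the deviation of CIITA from its group mean (log2 CPM) and that of the ribosomal protein share had a Pearson r of -0.81, where the points share groups of 3. HLA-DRB1 went the other way, with r = 0.92, and HLA-DQB1 (0.73), CD74 (0.67) and HLA-DMA (0.64) also did. With the share as a covariate, chosen after the data were seen, the log2 fold changes of CIITA against NC in EUC, EPL, SUC and SPL were 1.25, 1.58, 0.43 and 0.78. With EUC3 and SUC3 left out it was 1.62, 1.97, 0.64 and 1.03.

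**Figure D2:**
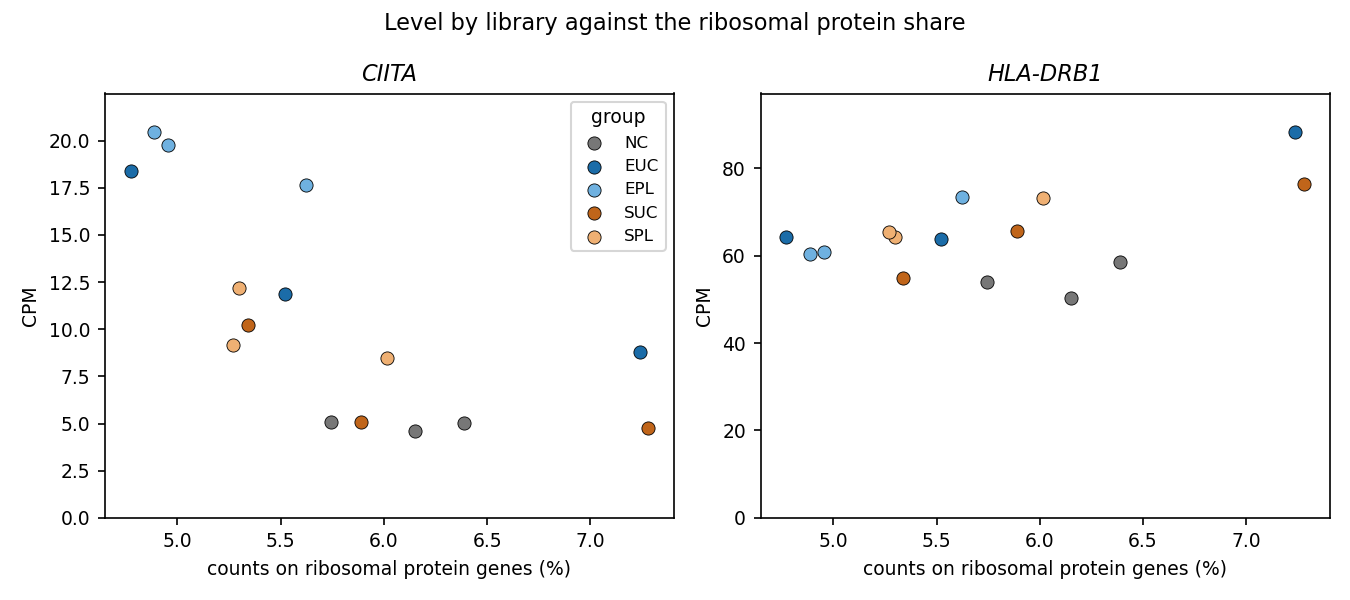
Level of CIITA (left) and HLA-DRB1 (right) in CPM against the percentage of reads on ribosomal protein genes, with 1 point per library coloured by group. EUC3 and SUC3 are the points at 7.24% and 7.28%, with the lowest CIITA and the highest HLA-DRB1 of their groups.

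CD74, the invariant chain, was the most abundant of the 10 genes and rose in all 4 groups. It was at 152, 154 and 162 CPM in the NC libraries. The 12 BEV libraries lay between 195 and 244 CPM, with no overlap, and the means of EUC, EPL, SUC and SPL were 222 ± 14, 215 ± 25, 212 ± 12 and 220 ± 8.0 CPM (SD, n = 3), against 156 ± 5.0 CPM in NC. The log2 fold change was 0.51, 0.47, 0.45 and 0.50 in that order, each with an SE of 0.087 and with edgeR adjusted p-values from 0.000135 to 0.00069. The rise was therefore 1.36-fold to 1.42-fold, well under the fold cut-off for a DEG.

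HLA-DRA, the α chain shared by all HLA-DR molecules, rose by more. Its NC libraries were at 2.43, 3.12 and 3.70 CPM. The EUC libraries were at 8.13, 9.87 and 9.99 CPM and the EPL libraries at 11.8, 8.47 and 9.24 CPM. With *S. aureus* BEVs it was at 7.04, 5.37 and 6.60 CPM in SUC and at 7.47, 7.60 and 6.76 CPM in SPL. All BEV libraries were above all NC libraries, and all *E. coli* BEV libraries were above all *S. aureus* BEV libraries.

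The rise of HLA-DRA was 3.01-fold in EUC (log2 fold change 1.59, SE 0.18) and 3.18-fold in EPL (1.67, SE 0.18), with edgeR adjusted p-values of 1.36e-06 and 7.91e-07. It was 2.05-fold in SUC (1.03, SE 0.18, edgeR adjusted p = 0.000312) and 2.35-fold in SPL (1.23, SE 0.18, edgeR adjusted p = 4.02e-05). These values rest on 38 to 62 reads per NC library and 86 to 180 per BEV library.

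HLA-DRB1, the β partner of HLA-DRA, did not pass the test in any BEV group. It was at 53.9, 50.2 and 58.5 CPM in NC. EUC was at 64.2, 63.9 and 88.3 CPM and EPL at 73.4, 60.3 and 60.9 CPM. SUC was at 54.9, 65.7 and 76.4 CPM and SPL at 64.2, 73.1 and 65.4 CPM. EUC, EPL and SPL lay above NC, and SUC overlapped it.

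The log2 fold changes of HLA-DRB1 were 0.41 (SE 0.14, edgeR adjusted p = 0.0227) in EUC, and 0.26, 0.28 and 0.32 in EPL, SUC and SPL, with edgeR adjusted p-values from 0.0858 to 0.149 in these 3. With the ribosomal protein share as a covariate they were 0.45, 0.46, 0.25 and 0.44, and all 4 passed, with an adjusted p of 0.00416 or less. Without EUC3 and SUC3 they were 0.23, 0.25, 0.15 and 0.32, and none passed. EUC also passed with no filter on low counts (adjusted p = 0.00196), and SPL with only the compared groups in the fit (0.000124). HLA-DRB1 has a near-identical neighbour, HLA-DRB5, at 17.5 to 29.2 CPM, so that reads can be split between the copies. HLA-DRB1 had 2.61 to 3.29 times the reads of HLA-DRB5 in each library. Summing both before the fit gave log2 fold changes of 0.41, 0.29, 0.32 and 0.32, none of which passed. THP-1 alleles may also differ from the reference genome, and the effect of this on the HLA counts was not tested.

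**Figure D3:**
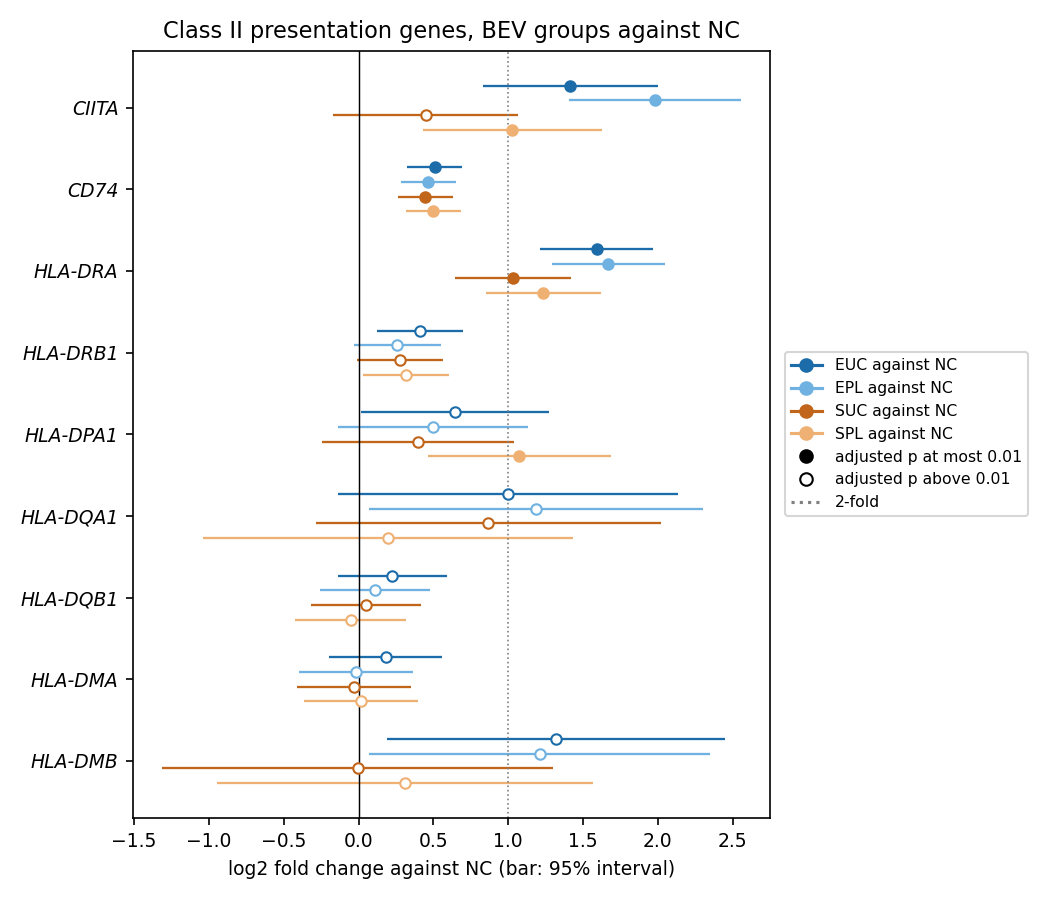
Log2 fold change of the 9 tested genes in each BEV group against NC (horizontal axis), with bars for the 95% interval, filled points for an edgeR adjusted p of at most 0.01 and a dotted line at 2-fold. CD74 gives 4 close values around 0.5, CIITA runs from 0.45 in SUC to 1.98 in EPL, and HLA-DQB1 and HLA-DMA lie around 0.

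Transcripts of HLA-DP were scarce. HLA-DPA1, the α chain, was at 0.88 to 1.22 CPM in NC (15 to 19 reads), 1.35 to 1.91 CPM in EUC, 0.89 to 1.69 CPM in EPL, 1.23 to 1.45 CPM in SUC and 1.72 to 2.32 CPM in SPL. It rose in SPL alone, by 2.11-fold (log2 fold change 1.08, SE 0.29, edgeR adjusted p = 0.00782). That call did not hold with DESeq2 (adjusted p = 0.0115), with library totals only (0.0134) or with no filter on low counts (0.0195), nor when NC1, NC2, NC3, SUC1, SUC2, SPL2 or SPL3 was left out. HLA-DPB1, the β chain, had 16 reads in the 3 NC libraries together and 8 to 10 in each BEV group, too few to compare.

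None of the HLA-DQ or HLA-DM genes passed the test. HLA-DQB1, a β chain, was at 11.7 to 16.0 CPM in NC and 10.6 to 17.8 CPM in the BEV libraries, and its α partner HLA-DQA1 at 0.18 to 0.65 CPM in NC and 0.33 to 1.15 CPM in the BEV libraries. The log2 fold changes of HLA-DQA1 ran from 0.20 in SPL to 1.184 in EPL on 3 to 18 reads per library. For HLA-DQB1 they ran from -0.05 in SPL to 0.23 in EUC, where the 95% interval reached from -0.14 to 0.59. HLA-DMA, the α chain of the peptide editor, was at 4.53 to 5.96 CPM in NC and 4.10 to 6.47 CPM in the BEV libraries, with log2 fold changes from -0.03 to 0.18. Of its annotated exons 55 bases overlap BRD2 on the other strand, a gene with 4896 to 7307 reads, and the strand setting of the counting is not given in the sources used here.

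HLA-DMB, the β chain of the editor, had 1 to 15 reads per library. It was at 0.06 to 0.48 CPM in NC and at 0.59 to 0.77 CPM in EUC, which did not overlap, and at 0.44 to 0.98 CPM in EPL. The log2 fold changes were 1.32 (SE 0.53, edgeR adjusted p = 0.0577) in EUC and 1.21 (SE 0.54, edgeR adjusted p = 0.0863) in EPL, and neither passed. In SUC and SPL it was at 0.25 to 0.41 CPM, inside the NC range. The exons of CIITA overlap the antisense gene DEXI, with 18 to 30 reads in a library, over 10.7% of their length, and those of HLA-DQB1 overlap HLA-DQB1-AS1, with 0 to 4 reads, over 4.92%.

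Per kilobase of exon, the order of the levels was steep. In NC, CD74 was at 34.4 CPM per kilobase and HLA-DRB1 at 17.6. HLA-DQB1 (2.85), HLA-DRA (2.48) and HLA-DMA (2.01) followed, and neighbours in this trio overlapped over the libraries. CIITA (0.217) and HLA-DPA1 (0.174) overlapped each other, and HLA-DPB1, HLA-DMB and HLA-DQA1 were at 0.0619 or less and overlapped. In each BEV group HLA-DRA was the third, at 5.09 to 7.91, with no overlap with HLA-DQB1 below it. CIITA remained the sixth in each group and overlapped HLA-DPA1 in SUC and SPL but not in EUC and EPL.

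HLA-DRB1 had 6.38 to 8.95 times the level of HLA-DRA per kilobase of exon in the NC libraries (these chains pair in the same molecule). In the BEV libraries the ratio was 2.51 to 4.93. It was lowest in EPL, at 2.51 to 2.87, and next in EUC, at 2.61 to 3.57. With the longest transcript in place of all exons the ratio was 8.71 to 12.2 in NC and 3.42 to 6.73 in the BEV libraries. Over the 10 genes, the summed level was 232 to 251 CPM in NC and 299 to 372 CPM in the BEV libraries, and CD74 held 63.5% to 70.3% of it in every library.

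**Figure D4:**
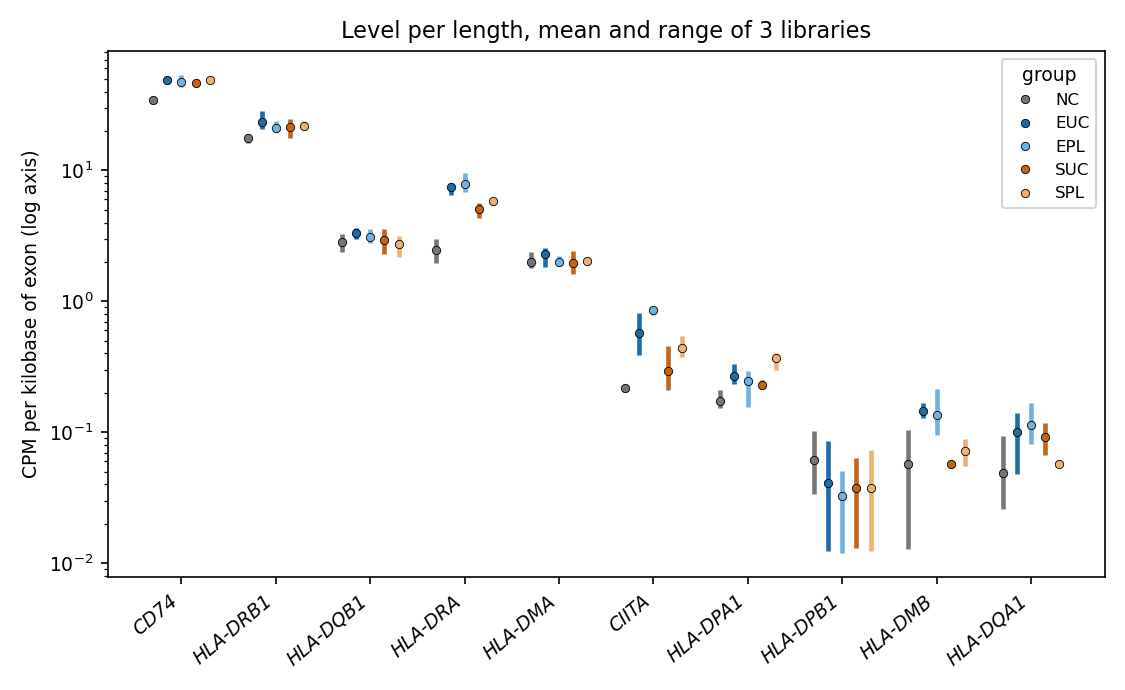
Level per kilobase of exon (CPM per kilobase, log axis) of the 10 genes, ordered by their NC mean, with the mean (point) and range (bar) of the 3 libraries in each group. HLA-DRA moves from the range of HLA-DQB1 and HLA-DMA in NC to a place of its own in the BEV groups.

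The species, with their doses, were compared on the mean of both isolation methods. CIITA was 1.95-fold higher with *E. coli* than with *S. aureus* BEVs (log2 difference 0.96, SE 0.19, edgeR adjusted p = 0.00326), which is 1 of 9 genes against 2.87% of all genes higher and 1.0% lower. Every EPL library was above every *S. aureus* BEV library, whereas EUC2 and EUC3, at 11.9 and 8.81 CPM, lay within their range. The call was lost, with adjusted p-values of 0.01004 to 0.0152, without EPL2, SUC2, SPL2 or SPL3, and with an adjusted p of 0.0105 when NC was left out of the fit. With the ribosomal protein share as a covariate the log2 difference was 0.81 (adjusted p = 2.01e-06).

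HLA-DRA was 1.41-fold higher with *E. coli* BEVs (log2 difference 0.50, SE 0.12, edgeR adjusted p = 0.0138), just outside the threshold. It passed with DESeq2 (adjusted p = 0.00422), with no filter on low counts (0.0064) and with the ribosomal protein covariate (0.000563). For CD74 the log2 difference was 0.015, with a 95% interval from -0.11 to 0.14, and for HLA-DRB1 it was 0.038, from -0.17 to 0.24. For HLA-DMB it was 1.11 (SE 0.38, edgeR adjusted p = 0.102), from 0.31 to 1.91. No gene of the 9 was higher with *S. aureus* BEVs at an unadjusted p under 0.05. Of all 17198 tested genes, 2920 were under that cut-off in either direction.

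The isolation methods were compared within each species. None of the 9 genes passed the test between EPL and EUC, where edgeR called 0% of all genes, or between SPL and SUC, where it called 0.00581%, and DESeq2 called none of the 9 either. At an unadjusted p under 0.05 there was 1 gene of the 9 in each, CIITA in *E. coli* and HLA-DPA1 in *S. aureus*. Of all 17198 tested genes, 604 with *E. coli* and 1000 with *S. aureus* BEVs were under that cut-off, so these counts do not set the 9 genes apart. CIITA was 1.48-fold higher in EPL than in EUC, with a 95% interval from 1.03-fold to 2.14-fold (edgeR adjusted p = 0.947), and 1.5-fold higher in SPL than in SUC, from 1.0-fold to 2.24-fold (edgeR adjusted p = 0.854). Without EUC3 and SUC3 the log2 differences of CIITA were 0.35 and 0.39, against 0.57 and 0.58 with them. For HLA-DPA1 SPL was 1.60-fold above SUC, from 1.06-fold to 2.42-fold (edgeR adjusted p = 0.814). For CD74 the PL to UC ratio was 0.97, from 0.86 to 1.1, with *E. coli* BEVs, and 1.04, from 0.91 to 1.178, with *S. aureus* BEVs. For the difference of the method effect between the species edgeR called 0 of the 9 genes and 0% of all genes, and DESeq2 called 0 of 9. At an unadjusted p under 0.05 there were 0 of 9, beside 659 of all 17198 tested genes.

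The remaining genes of the pathway were taken from 5 lists of 36 genes, of which 30 were tested. Among the other class II genes, HLA-DRB5 and HLA-DOB were tested and neither passed. Both were higher in all 4 groups at an unadjusted p under 0.05, a cut-off that 6945 to 8269 of all 17198 genes met. With the ribosomal protein covariate 1 of them passed in each group. The count was also 1 in SUC with no filter and in SPL with only the compared groups in the fit. In EPL it was 1 without EPL3 or without SPL1. HLA-DRB5 was at 17.5 to 18.3 CPM in NC and 20.2 to 29.2 CPM in the BEV libraries. HLA-DOB, the β chain of the HLA-DM inhibitor HLA-DO, was at 0.59 to 0.95 CPM in NC and 0.89 to 2.1 CPM in the BEV libraries, with log2 fold changes of 0.93, 1.12, 0.80 and 0.75 in EUC, EPL, SUC and SPL and adjusted p-values from 0.011 to 0.096. Its partner HLA-DOA and the DQ copies HLA-DQA2 and HLA-DQB2 were at no more than 0.13 CPM.

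Of the 7 factors that build the platform for CIITA, 2 rose and 1 fell in EUC, where 16.5% of all genes rose and 14.0% fell. In EPL 1 rose and 2 fell, against 16.0% and 13.2% of all genes, and in SPL 1 rose and 2 fell, against 13.3% and 10.6%. In SUC none passed with edgeR, against 12.4% and 9.15%. At an unadjusted p under 0.05 there were 4 higher and 2 lower, where 6945 of all 17198 tested genes differed in either direction. With DESeq2 2 were called higher, and the share of all genes with DESeq2 is not given here. NFYC, a subunit of the Y box factor NF-Y, went from 984 to 1006 CPM in NC to 1114 to 1278 CPM in the BEV libraries. Its log2 fold changes were 0.33, 0.29, 0.19 and 0.29. The subunits of NF-Y did not move together. NFYB went from 30.5 to 31.7 CPM in NC to 21.3 to 28.4 CPM in the BEV libraries, and fell in EPL and SPL. NFYA rose in EUC alone with edgeR. RFXANK, a subunit of the X box factor RFX, went from 50.8 to 62.3 CPM in NC to 31.3 to 49.4 CPM. Its log2 fold changes were -0.54, -0.70, -0.50 and -0.69. Neither NFYC nor RFXANK passed in SUC, with edgeR adjusted p-values of 0.031 and 0.018. NFYC in SUC passed with DESeq2 (adjusted p = 0.000644) and with the ribosomal protein covariate. RFXANK in SUC passed with library totals only (0.00145), with no filter (0.000476), with only the compared groups in the fit (0.00591), without EUC3 or SUC3 and with the covariate. NFYC passed in none of the 4 comparisons with library totals only, and the RFXANK call in EUC was lost without any of 10 single libraries. The medians of the 7 factors were 0.049, 0.13, 0.19 and 0.074 in the same order of groups.

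Of the 10 enzymes that process antigen and invariant chain, 9 were tested, 4 rose in EUC and EPL, against 16.5% and 16.0% of all genes, and 3 in SUC and SPL, against 12.4% and 13.3%. None fell in the main edgeR fit or with DESeq2, and none was lower at an unadjusted p under 0.05 in the main fit. With library totals only, edgeR called 1 enzyme lower in SPL. CTSH, a lysosomal aminopeptidase, was at 50.6 to 56.6 CPM in NC and 107 to 136 CPM in the BEV libraries, without overlap, with log2 fold changes of 1.12, 1.11, 1.19 and 1.17. SPPL2A, the protease that clears the CD74 stub from the membrane, went from 60.6 to 67.5 CPM to 91.4 to 121 CPM, with 0.81, 0.83, 0.72 and 0.60. CTSB, an endosomal cysteine protease, rose by 0.49, 0.53, 0.42 and 0.48. CTSL, a protease that trims the invariant chain, rose with *E. coli* BEVs by 0.83 and 0.85. For CTSL the values with *S. aureus* BEVs were 0.45 and 0.39, with edgeR adjusted p-values of 0.021 and 0.042. Both passed with edgeR and no filter on low counts (adjusted p = 0.00045 in SUC and 0.00426 in SPL). Both also passed with only the compared groups in the fit (0.00275 and 2.54e-06), without EUC3 and with the ribosomal protein covariate. The species difference of CTSL was 0.42 (SE 0.098, edgeR adjusted p = 0.0118), and it passed with DESeq2 (adjusted p = 0.00135). CTSS, the main invariant chain protease of myeloid cells, was at 118 to 148 CPM throughout, with log2 fold changes from -0.14 to 0.06, none past the test. The medians of the list were 0.49, 0.53, 0.42 and 0.39.

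**Figure D5:**
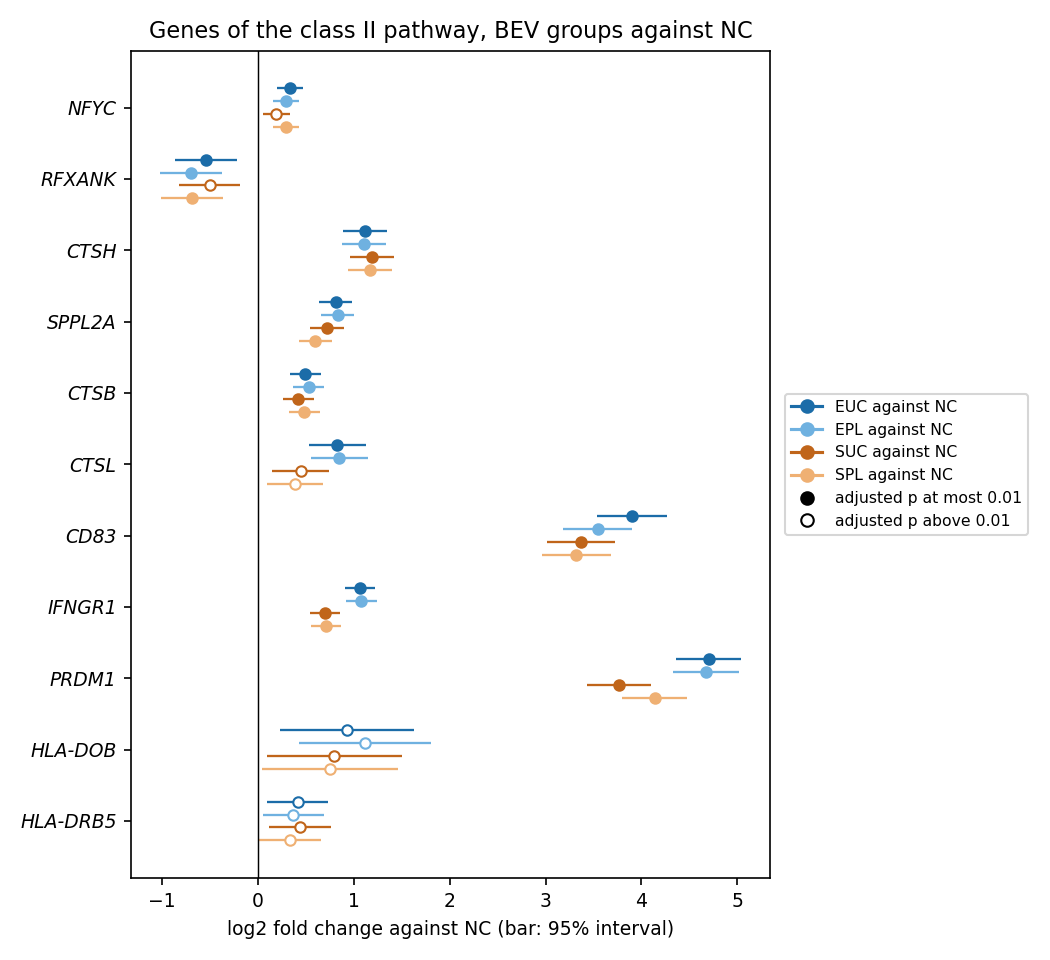
Log2 fold change against NC (horizontal axis) of genes of the pathway lists in the 4 BEV groups, with bars for the 95% interval and filled points for an edgeR adjusted p of at most 0.01. CTSH and SPPL2A have filled points right of 0 in all groups, while IFNGR1 and PRDM1 lie further right with *E. coli* BEVs.

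Of the 3 genes that set the turnover of surface class II, CD83 rose in all 4 groups, which 10.9% of all tested genes did. CD83, a maturation marker that shields class II from ubiquitination, went from 8.0 to 12.2 CPM in NC to 91.3 to 178 CPM in the BEV libraries, with log2 fold changes of 3.90, 3.54, 3.37 and 3.32. The ubiquitin ligases MARCHF1 and MARCHF8, which send class II to degradation, did not pass, with log2 fold changes from -0.56 to -0.11.

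The interferon-γ route to CIITA and its brakes was the list with the most calls. Of its 11 genes 9 were tested, and 8, 9, 8 and 9 rose in EUC, EPL, SUC and SPL, against 16.5%, 16.0%, 12.4% and 13.3% of all genes, with medians of 1.44, 1.276, 0.79 and 1.06. PRDM1, a repressor of CIITA transcription in B lineage and dendritic cells, went from 7.27 to 9.60 CPM to 101 to 249 CPM, with log2 fold changes of 4.70, 4.67, 3.77 and 4.14. IFNGR1, the ligand-binding receptor chain, rose by 1.07, 1.08, 0.70 and 0.71. IFNG itself had no read in any of the 15 libraries, which allows at most 0.0128 CPM over all of them (3 reads, counting error only). IL10, a cytokine that lowers surface class II, had no read in NC and 19, 10, 8 and 9 reads in the 3 libraries of EUC, EPL, SUC and SPL. Against 3 reads over the NC group, these reads were 6.77-fold higher in EUC, 3.51-fold in EPL, 3.24-fold in SPL and 2.88-fold in SUC. The ratios are scaled for depth, allow for counting error in NC alone and are not lower limits. IL10 had too few reads to be tested.

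IFNGR1 and PRDM1 differed between the species, like CIITA. IFNGR1 was at 147 to 165 CPM with *E. coli* and 114 to 125 CPM with *S. aureus* BEVs, without overlap (log2 difference 0.37, SE 0.052, edgeR adjusted p = 0.000178). PRDM1 was at 190 to 249 CPM against 101 to 164 CPM, also without overlap (log2 difference 0.73, SE 0.094, edgeR adjusted p = 8.20e-05). CIITA and PRDM1, the activator and its repressor, were thus both higher with *E. coli* BEVs.

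The genes whose pattern over the 15 libraries was most like that of CIITA, among 10834 tested genes with a mean of at least 5 CPM, were RUNX3 (Pearson r of log2 CPM 0.95), ANPEP (0.94), CBX6 (0.93), TLE3 (0.93) and COL6A1 (0.93). RUNX3, a transcription factor of leukocytes, went from a mean of 107 CPM in NC to 178 CPM in the BEV libraries. For HLA-DRA they were FMNL1-DT (0.99), the pseudogene CIDECP1 (0.98), S100A8 (0.98), CCL24 (0.98) and CKB (0.98). S100A8, a calgranulin of myeloid cells, went from 9.48 to 34.0 CPM, and CCL24, a chemokine for eosinophils, from 1.00 to 18.1 CPM. The 15 points share 5 groups, so that these values describe the group pattern more than the single libraries. By rank (Spearman's rho) none of the 5 genes was among the 5 most alike, for CIITA or for HLA-DRA.

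Within groups, the deviations of CIITA showed no positive correlation with those of HLA-DRA, CD74 or HLA-DRB1. The deviations from the group mean over the 15 libraries had a Pearson r of -0.08 between CIITA and HLA-DRA, -0.33 between CIITA and CD74 and -0.77 between CIITA and HLA-DRB1. Between CD74 and HLA-DRA it was 0.73, and between CD74 and HLA-DRB1 0.68. The libraries share 5 group means, and the ribosomal protein share moved with CIITA, HLA-DRB1 and CD74 as given above.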

How the data were processed

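RNA of 15 samples (3 per group, paired 150-base reads) was measured. The authors deposited a table of counts, whole reads per gene as unnormalized values. Per the labels the tools were FastQC 0.11.5, HISAT2 2.1.0, StringTie 1.3.3b, featureCounts and DESeq 1.28.0, and the genome was hg38. The sources used here give neither the annotation release nor the strand setting. From these counts, genes with low counts were removed (edgeR filterByExpr by group), libraries were scaled by TMM, and edgeR 4.0.16 (R 4.3.3) fitted the 5 groups together, with p-values adjusted by Benjamini-Hochberg over 17198 genes. The fit was tested on simulated data. CPM used TMM-scaled totals, and lengths, positions and overlaps came from GENCODE 44. The alternatives included DESeq2 1.42.0, other scaling, no filter, a replicate block and leaving out each library. The members and lists were chosen with earlier results of these data known. All 10 members were named. Of each list at most 4 genes were named, those with the largest mean change among genes that passed in all 4 comparisons, plus those with different calls between the species. Other listed genes, with NFYA, NFYB, NFYC and RFXANK among them, were added after their values were seen. The libraries held 14399421 to 16637345 reads, and no 2 libraries of a group agreed within counting noise (chi-square per degree of freedom at least 2.20). A gene of the lists is counted but not reported here.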

Additional observations from a re-analysis of the deposited data

Results flagged for a closer look

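For 3 genes the response to BEVs differed between the *E. coli* and the *S. aureus* groups when the difference itself was tested (edgeR, mean of both isolation methods). The log2 difference was 0.96 for CIITA (adjusted p = 0.00326, with 4 of 6 libraries above all *S. aureus* BEV libraries and EUC2 and EUC3 within their range), 0.37 for IFNGR1 (adjusted p = 0.000178, higher in 6 of 6 libraries) and 0.73 for PRDM1 (adjusted p = 8.20e-05, higher in 6 of 6 libraries). The BEV species and the dose cannot be told apart. For CIITA the ribosomal protein share of the libraries moved with the level within groups, and the log2 difference was 0.81 with that share in the fit.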

How the results depend on the processing

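The log2 fold changes of the 9 tested genes against NC and between the species, and of CIITA between methods, kept their direction and their side of the threshold in 1049 of 1121 refits. That count includes refits without a library from outside the comparison, and genes far from the threshold, so it is not a measure of robustness. CD74 and HLA-DRA rose in all 4 BEV groups, and CIITA in EUC and EPL, under every one of these alternatives. A test against 2-fold, which asks for more, called 1 gene in EUC, 2 in EPL and 0 in SUC, SPL, the mean of the BEV groups and the species comparison. The 4 rises in SPL became 2 with library totals only, and 2 to 4 when single libraries were left out. The single species call became 2 with DESeq2, with no filter and with the ribosomal protein covariate, 0 with only the compared groups in the fit, and 0 to 1 when single libraries were left out. With library totals only, the median of all genes in EUC moved to -0.16. Likeness by Spearman's rho kept 0 of 5 genes, and the longest transcript kept 6 to 10 of 10 ranks in a group.

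The replicate numbers did not pair the samples (30 pairs of libraries with the same number, r of deviations from -0.45 to 0.52, above 0.1 in 7). With a replicate block the counts of rises stayed at 3, 3, 2 and 4 in EUC, EPL, SUC and SPL, and the log2 difference of CIITA between the species was 0.98 (adjusted p = 0.000968).

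The reversals were all of values that did not pass the test, and the cause was not tested. When single libraries were left out, HLA-DQB1 ran from -0.013 to 0.22 in EPL, -0.11 to 0.21 in SUC and -0.16 to 0.10 in SPL. HLA-DMA ran from -0.10 to 0.12 in EPL, -0.20 to 0.10 in SUC and -0.049 to 0.15 in SPL. HLA-DMB ran from -0.47 to 0.74 in SUC and -0.15 to 1.05 in SPL, and HLA-DQA1 from -0.11 to 1.07 in SPL. Between the species CD74 ran from -0.034 to 0.038 and HLA-DRB1 from -0.060 to 0.10. With library totals only, HLA-DQB1 was -0.014 in EPL and -0.072 in SUC, HLA-DMA -0.095 in SPL, and CD74 -0.012 between the species. With the ribosomal protein covariate, HLA-DMA was 0.14 in EPL, and HLA-DQA1 -0.037 and HLA-DQB1 0.070 in SPL. Without EUC3 and SUC3, HLA-DQB1 was -0.11 in SUC. HLA-DMB in SUC was 0.0078 with no filter and 0.019 with the replicate block. Depth limits HLA-DPA1, HLA-DPB1, HLA-DQA1 and HLA-DMB, with at most 36 reads per library.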
